A study of Mus musculus with 44 samples.

Results

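The AsiSI break beside Arhgap21 is a DNA double-strand break (DSB) made by the restriction enzyme AsiSI at chr2:20968930-20968937 (mm10), 7.70 Mb from the bait break used to find translocations on the same chromosome. Its junctions were chosen by position, as every junction whose prey mapped to chromosome 2 within 500 bp of the cut at 20968934. They numbered 2035 of the 148726 junctions in the 32 libraries of high-throughput genome-wide translocation sequencing (HTGTS). The site is 1 of 1109 AsiSI motifs on chromosomes 1 to 19, X and Y, and is number 50 in the study's list of 97 frequently cut sites. It lies 53 bp upstream of the annotated start of Arhgap21 (ENSMUSG00000036591), a minus-strand gene at chr2:20847919-20968881. In GENCODE vM21 the cut falls in no gene, and the antisense gene Gm13375 starts 120 bp to its right. The next AsiSI motif on the chromosome is 1538168 bp away.

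All cells were mouse embryonic fibroblasts (MEFs) that the labels call wild type, and 26 libraries came from AsiSI-MEFs, a line with an inducible enzyme. In all AsiSI-MEF cultures, controls included, AsiSI expression was switched on by doxycycline (3 µg/ml, 24 h) and its entry into the nucleus by 4-hydroxytamoxifen (4OHT, 1 µg/ml) during the final 6 h, and no uncut AsiSI-MEF library was analysed here. Of these, 6 libraries came from cells given DMSO with 4OHT and 6 from cells given 100 µM CK-666, an inhibitor of the actin nucleator Arp2/3. In a DNA-PKcs experiment, 3 libraries came from cells given 10 µM NU7441, also for 1 h before 4OHT, and 3 from cells given DMSO. There were 2 libraries with 3 µM wiskostatin, an inhibitor of the Arp2/3 activator WASP, and 2 with DMSO, and 2 from cells transfected with Flag-tagged actin R62D-NLS, an actin that does not polymerize and is sent to the nucleus, and 2 with empty vector. The other 6 libraries came from MEFs without AsiSI transfected 48 h before lysis with a guide RNA that directs Cas9 to the bait site, 3 with DMSO and 3 with CK-666. The paper calls the replicates of the AsiSI-MEF experiments biological, and the labels do not say whether they were separate cultures. The p-values measure the spread between libraries.

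AsiSI leaves ends with short 3′ overhangs. Cells can rejoin such ends directly by classical non-homologous end joining, which depends on DNA-PKcs, or, after the ends have been trimmed back, by alternative end joining at short stretches shared by both sides, called microhomology (MH). When ends of different breaks are joined, the result is a translocation, a deletion or an inversion, and the bases lost, shared or added at the junction are its repair scar.

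The motif at both breaks and the joins between them are given here on the plus strand, with the AsiSI motif in capitals. The bait lies in an exon and UTR of Rsu1 on GRCm38, the reference for mm10, and HTGTS reads out from the left of its cut at 13271321. The stretches cover chr2:13271306-13271335 and chr2:20968919-20968948. The last 2 lines are the sequences that form when no base is lost at either end, which the reads also held.
bait: accctgtcccaGCGATCGCgcaggcgcaca
Arhgap21 site: ctcccgcgcccGCGATCGCcgagcgcgaga
join to the right end: accctgtcccaGCGATCGCcgagcgcgaga
join to the left end: accctgtcccaGCGATCGCgggcgcgggag
Both joins hold the whole motif again. A join to the right end reads on along the plus strand and, if both breaks were on the same chromosome copy, removes the 7.70 Mb between them. A join to the left end reads back along the minus strand, as an inversion would. Joins within one chromosome 2 and joins between its homologues cannot be told apart in these data.

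Junctions at the break were found in all 26 AsiSI-MEF libraries, between 6 and 311 in each. Over the 13 control libraries they made up 1.68% ± 0.42 (SD, n = 13) of the junctions more than 10 kb from the bait, with a lowest library of 0.701% and a highest of 2.24%. The break ranked between 1 and 14 among all motifs by junction number in the 26 libraries, with a median rank of 4, and between 1 and 7 among the motifs of chromosome 2. The libraries held between 335 and 17479 junctions more than 10 kb from the bait. Counting error alone therefore gave wide limits in the small ones, and the CK-666 library with 6 junctions at the break had a 95% Wilson interval from 0.823% to 3.85%.

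**Figure D1:**
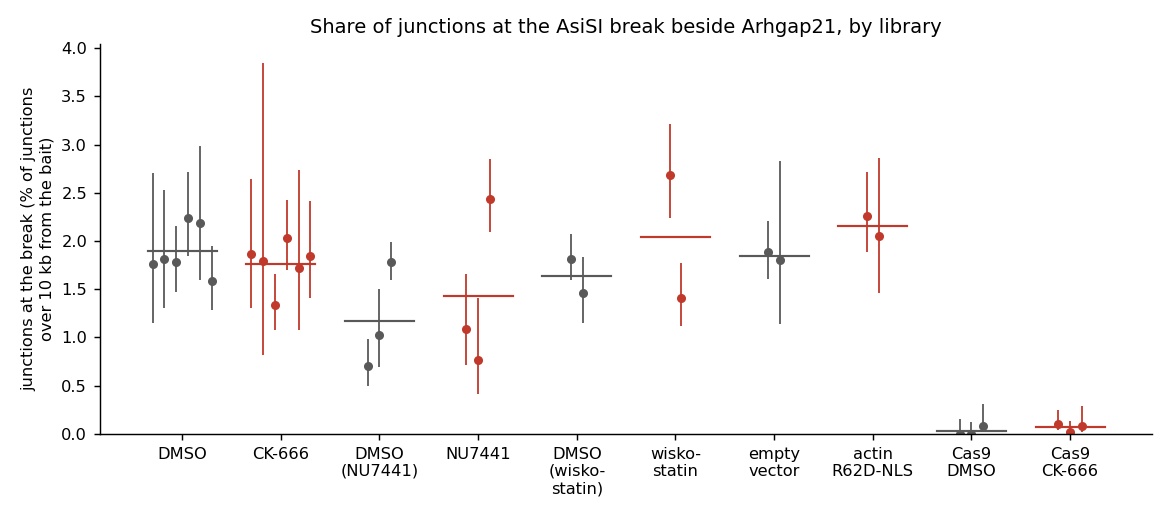
Share of junctions at the break beside Arhgap21 in each of the 32 libraries, as a percentage of junctions more than 10 kb from the bait; points are libraries with 95% Wilson intervals, which cover counting error only, and horizontal lines are group means. The AsiSI-MEF libraries lie between 0.701% and 2.68% and the 6 Cas9 libraries between 0% and 0.106%.

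The level of the break was then compared under inhibition of actin nucleation. With DMSO, the share ranged from 1.58% to 2.24% over the 6 libraries (median 1.80%, mean 1.89% ± 0.26 SD), and with CK-666 from 1.34% to 2.03% (median 1.82%, mean 1.77% ± 0.23 SD). The groups overlapped over most of their range. The share was higher with CK-666 in 3 of 6 pairs, and the mean log2 ratio over pairs was -0.09 ± 0.25 (SD, n = 6; p = 0.406, exact 2-sided sign-flip permutation test over pairs, whose smallest possible p is 0.0312). In a limma fit over all 259 motifs with at least 10 junctions the 95% confidence interval of this log2 ratio ran from -0.40 to 0.23 (adjusted p = 0.954). No motif was called in that fit (0% of those tested), and 11 had an unadjusted p under 0.05. The 2 pairs of one sequencing run gave a mean log2 ratio of 0.07 and the 4 pairs of the other -0.16. These shares are relative to the other junctions of a library, so a change common to all junctions would not appear in them.

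With wiskostatin the 2 libraries had shares of 2.68% and 1.41%, against 1.82% and 1.46% in their controls. One pair rose by a ratio of 1.48 and the other was near its control at 0.969. With actin R62D-NLS the shares were 2.26% and 2.05%, against 1.88% and 1.81% with empty vector. Both treated libraries were above both controls, by ratios of 1.2 and 1.12, but all 4 Wilson intervals overlapped. No test was made with 2 pairs. In the limma fits, which borrow the spread of all motifs, the interval of the log2 ratio was -0.32 to 0.84 for wiskostatin (adjusted p = 0.897, 0 of 247 motifs called, or 0%, and 20 at an unadjusted p under 0.05). For actin R62D-NLS it was -0.11 to 0.54 (adjusted p = 0.911, 0 of 219 called, or 0%, and 12 at an unadjusted p under 0.05).

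Inhibition of DNA-PKcs gave values that differed more between replicates than between treatments. The shares with NU7441 were 1.09%, 0.769% and 2.44% for replicates 1 to 3, and those of the controls 0.701%, 1.02% and 1.78%. The third pair, sequenced in a different run from the other 2, was the highest of both groups. The log2 ratios were 0.65, -0.37 and 0.46, with a mean of 0.25 ± 0.54 (SD, n = 3; p = 0.50, exact sign-flip permutation test, smallest possible p 0.25). The 95% confidence interval from the limma fit ran from -0.78 to 1.27 (adjusted p = 0.871). That fit called 7 of 258 motifs (2.71%), and the Arhgap21 break was not one of them. The number called was 0 without replicate 1, 32 without replicate 2 and 1 without replicate 3.

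The Cas9 libraries came from cells without AsiSI, but AsiSI motifs were still read as prey in them. They held 0, 0 and 2 junctions at the break with DMSO and 5, 1 and 2 with CK-666. Together these were 10 of 19414 junctions more than 10 kb from the bait, or 0.0515% (95% Wilson interval 0.0280% to 0.0948%). The 2 libraries with none allow shares of up to 0.118% and 0.0951%, the level of 3 counts. Of the 10 junctions, 9 had the position, strand and overlap of a junction in an AsiSI-MEF library, 7 of them in one of the 2 AsiSI-MEF libraries sequenced in the same run, and 4 were joins with no base lost. Junctions at this break recurred between libraries in general. The 2025 junctions of the AsiSI-MEFs fell on 657 combinations of position, strand and overlap. In the control libraries 89.2% were at a position and strand seen in at least 2 libraries, with overlap not counted. The 2 AsiSI-MEF libraries of that run held 140 junctions at the break, or 1.43% of theirs. At all AsiSI motifs the 6 Cas9 libraries held 659 junctions, or 3.39% of their junctions more than 10 kb from the bait. The break made up 1.52% of these, against a mean of 2.35% over the 13 control libraries of AsiSI-MEFs. Prey at AsiSI motifs in the Cas9 libraries were thus not limited to this position. Whether the 10 junctions were carried over from AsiSI-MEF libraries was not tested.

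Most junctions lay close to the cut and to its right. In the AsiSI-MEFs 796 of 2025 junctions (39.3%) lay within 10 bp of the cut and 1537 (75.9%) within 50 bp, with a median distance of 17 bp. Prey lay to the right of the cut, away from Arhgap21, in 1503 junctions (74.2%). For the 584 junctions inside the motif the side was taken from the strand, so the 1503 include 221 plus-strand junctions that start left of the cut position within the motif. By library the right-hand share ranged from 52.6% to 80.1% in the 13 controls, with a mean of 69.3% ± 9.10 (SD). Prey were on the plus strand in 1184 junctions (58.5%) and on the minus strand in 841 (41.5%).

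Side and strand did not always go together. In 1076 junctions the prey was the right end read rightwards, and in 414 it was the left end read leftwards, as a join to either end of the break gives. These 1490 junctions are called own-side here, and 72.2% of them used the right end. The remaining 535 (26.4%) turned back towards the cut. In 427 of these the prey lay right of the cut but read leftwards on the minus strand, towards the cut, and in 108 it lay to the left and read rightwards on the plus strand. Turned-back prey made up 50.8% of all minus-strand junctions and 9.12% of plus-strand junctions. By library, between 27.3% and 88.5% of minus-strand junctions lay right of the cut, and 44.5% of those pooled over the controls. The part of the read aligned to the prey ran through the whole motif in 5 of the 535.

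**Figure D2:**
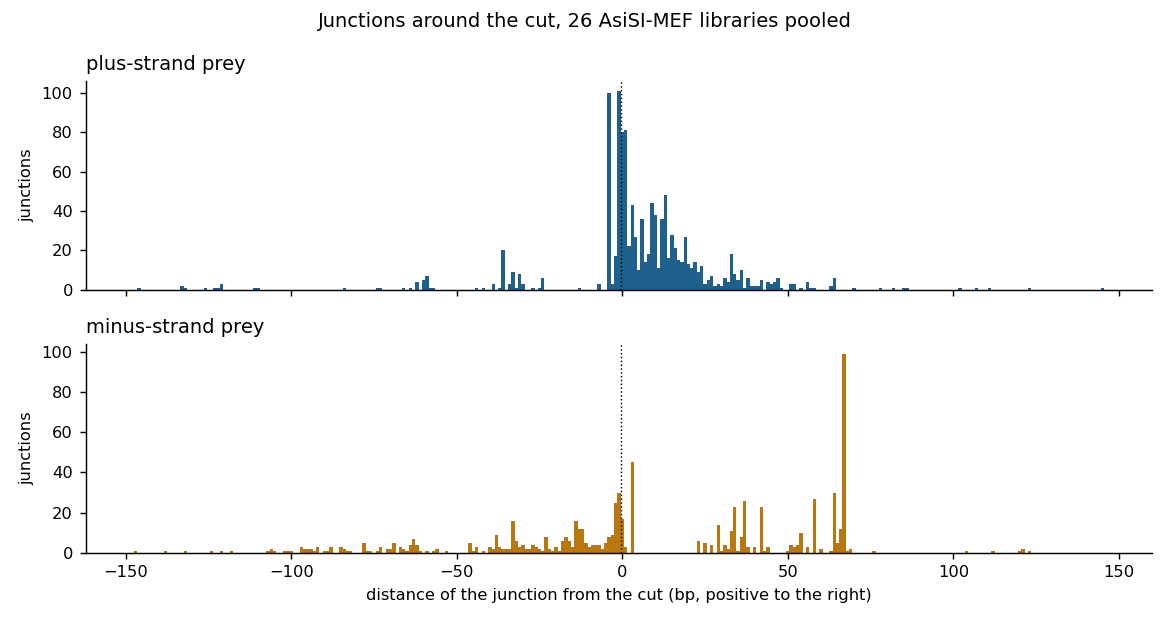
Number of junctions at each distance from the cut, for plus-strand prey (top) and minus-strand prey (bottom), pooled over 26 AsiSI-MEF libraries; the dotted line is the centre of the motif, and 127 of 2025 junctions beyond 150 bp are not drawn. Plus-strand prey pile up at the motif and to its right, and minus-strand prey fall into a group left of the cut and a second group to its right with a peak at 67 bp.

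Junctions recurred at a few positions. The 1205 junctions of the control libraries fell on 243 combinations of position and strand, and 89.2% of them were at a combination seen in at least 2 libraries. Of the 3 most frequent, plus-strand prey starting 1 bp before the cut position (offset -1), where the right end has lost no base, had 58 junctions in 11 of 13 control libraries, most often blunt. Minus-strand prey at 67 bp right of the cut had 57 junctions in 13 of 13, between 2.65% and 11.1% of each library's junctions at the break. Plus-strand prey at offset -4, the start of the motif, had 51 junctions in 13 of 13, between 1.93% and 12%.

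The reads behind the position at 67 bp show both strands of the right side of the break. The most common form had 3 bases between bait and prey and was found in 29 junctions from 23 libraries. The 30 bases from the motif on, as 24 of these reads gave them, are printed with the stretch aligned as prey in capitals, above the reference right of the cut at chr2:20968930-20968959.
read: gcgatcgccgaGCGCGAGCAGTCCGCCCCC
reference: gcgatcgccgagcgcgagactggccgggcc
The read followed the right flank of the cut forwards for 18 bases from the start of the motif, although the bait has other bases after the motif, and its 19 prey bases are the minus strand starting 67 bp to the right. The read thus held the forward right end directly after the bait and then its reverse strand. Over all 427 turned-back junctions of the right side, 198 reads (46.4%) held a 12-base stretch of the forward right end that began before the prey part. Stretches were taken from the start of the motif on. They could therefore include motif bases that the bait shares, and could run into the prey part. The no-loss join to the right end was held in full by 94 reads (22.0%), 8 bases on either side of the motif included. On the left side, 40 of 108 turned-back reads (37.0%) held such a stretch of the left end and 7 held the no-loss join to the left end.

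Some kinds of junction in a library went with the number it held at the break, and depth and sequencing run were partly confounded. Duplicates had been removed before deposit, and no more than 4 junctions of a library shared position, strand, bait end and overlap, also where 311 junctions lay at the break. Counting junctions placed at the no-loss join itself, each of the 26 libraries held between 2 and 8. They made up 12% of the 284 junctions in the 12 libraries with up to 40 junctions at the break, 5.23% in the 6 libraries with 51 to 100, and 2.89% of the 1282 junctions in the 8 libraries with more. Reads that held a no-loss join in full, wherever their junction was placed, numbered 224, between 2 and 19 in a library, and made up 19.7%, 14.4% and 7.96% of these classes. Over the same classes, overlaps of 6 nt or more made up 15.5%, 13.3% and 7.02%, and losses over 10 bp 35.9%, 42.2% and 54.2%, with no test. Insertions were at 18.3%, 22.0% and 21.8%, and turned-back junctions at 32.4%, 31.4% and 23.3%. All libraries of the sequencing run of the third NU7441 pair fell in the deepest class, so depth and run cannot be told apart there. The other libraries in that class, DMSO replicate 3 (104 junctions) and CK-666 replicate 4 (117), came from another run. They had losses over 10 bp of 39.1% and 42.9% and overlaps of 6 nt or more of 14.4% and 8.55%. Percentages pooled over libraries are thus mostly those of the deeper ones, in which no-loss joins had the lowest share.

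The bases lost from the prey end could be read for the own-side junctions. Bases shared with the bait are counted as prey, so each loss is a lower bound. The median loss was 10 bp (90th percentile 53 bp), and 286 of 1490 (19.2%) had lost no base. The right end had a median loss of 9 bp, and 58 of 1076 (5.39%) had lost more than 50 bp. The left end, which carries the Arhgap21 side, had a median loss of 15.5 bp, and 96 of 414 (23.2%) had lost more than 50 bp. At the bait the median loss was 2 bp, and 639 of 2025 junctions (31.6%) had lost none.

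Overlaps, which include MH, and insertions were read from the same alignments. Bait and prey overlapped by 1 to 5 nt in 909 junctions (44.9%) and by 6 nt or more in 195 (9.63%), 489 were blunt (24.1%) and 432 (21.3%) had bases inserted. Of the 195 long overlaps, 95 (48.7%) were the no-loss joins printed above, 59 to the right end with an overlap of 8 nt and 36 to the left end with an overlap of 9 nt, because the base next to the motif is also shared there. Own-side and turned-back junctions had different scars as aligned. All 584 junctions inside the motif, the no-loss joins among them, count as own-side by definition. Their part in the differences below was not tested. Insertions were present in 11.7% of own-side and 48% of turned-back junctions, and insertions of at least 10 nt in 18 and 116 junctions. Blunt joins made up 29.2% and 10.1%. In 192 of the 257 turned-back junctions with an insertion, the read also held the 12-base stretch of the break described above. Inserted bases were counted from the alignments alone, so such reads are included. Their part in this contrast was not tested.

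**Figure D3:**
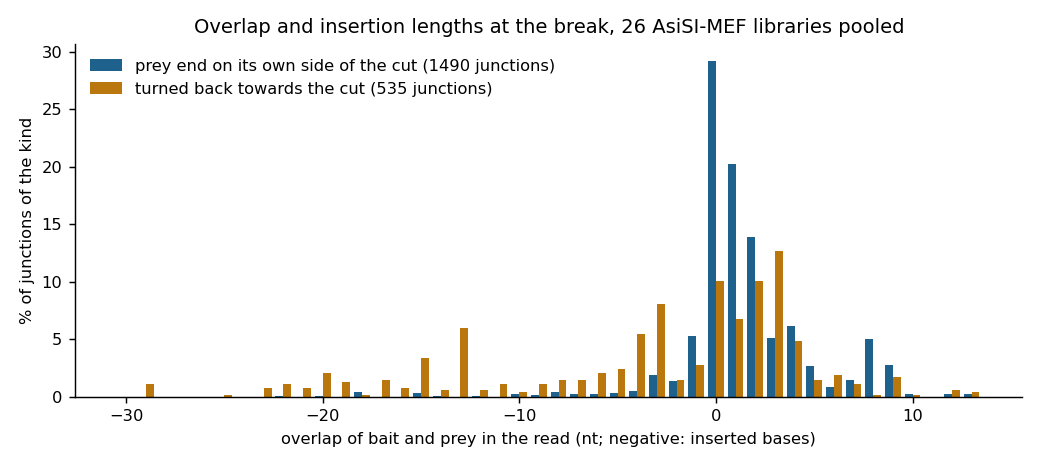
Length of overlap (positive, nt) or insertion (negative, nt) between bait and prey, as a percentage of the 1490 own-side and 535 turned-back junctions of 26 AsiSI-MEF libraries. Own-side junctions peak at 0 nt with a smaller group at 8 and 9 nt, and turned-back junctions spread into insertions of up to 29 nt.

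The 134 inserts of at least 10 nt were searched for within 1000 bases of either cut. A match on the strand opposite to the prey, near the prey cut, was found for 93 (69.4%), of which 92 were in turned-back junctions. Another 8 matched the prey's own strand, 2 matched near the bait only, and 31 matched neither. They held 67 different sequences, with a median of 15 nt, and the longest was 29 nt. Longer insertions would not be reported by the pipeline.

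The scars were then set against those of the 8 other frequently cut sites on chromosome 2, within each of the 13 control libraries. The prey end at the Arhgap21 break had lost more than 10 bp in 46.8% ± 10.4 (SD) of own-side junctions, against 28.1% ± 8.10 at the other sites, and the share was higher at the Arhgap21 break in 13 of 13 libraries. The mean difference of 18.7 percentage points passed the exact sign-flip permutation test over libraries (p = 0.000244, the smallest it can give; adjusted p = 0.000488 over 4 measures). This p-value and those below measure how the difference from the pool holds over libraries, not the spread between sites. At the other sites the pooled share of such losses lay between 18.4% and 42.8%. The break, the sites and the measures were chosen with earlier results known. Within the 6 sequencing runs the mean difference lay between 10.8 and 38.0 points. Pooled over the control libraries, the median loss was 11 bp at the break and between 2 and 6 bp at the other sites.

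Long overlaps were less frequent and insertions were more frequent there. Of the long overlaps at the break in the control libraries, 50 of 102 were no-loss joins, whose overlap holds the motif shared by all AsiSI sites. The part of these joins in the difference was not tested. Overlaps of 6 nt or more made up 10.8% ± 3.52 of junctions, against 18.9% ± 6.98 at the other sites, and were lower in 13 of 13 libraries (difference -8.07 points, exact permutation adjusted p = 0.000488). Insertions made up 21.1% ± 4.89 against 14.5% ± 2.76 and were higher in 11 of 13 (difference 6.61 points, exact permutation adjusted p = 0.00293). Of the 261 insertions at the break in the control libraries, 143 were in turned-back junctions. Against only those sites with at least as many junctions as the Arhgap21 break in the same library, the differences were 18.2 points for loss over 10 bp, -5.43 for long overlaps and 5.45 for insertions, and each passed (exact permutation adjusted p = 0.000488, 0.000488 and 0.0117). The differences in long overlaps and insertions became smaller in own-side junctions alone, at -3.47 points for long overlaps (exact permutation adjusted p = 0.0505) and 2.61 points for insertions (adjusted p = 0.164). The loss, measured on own-side junctions only, is the same by construction. The plus-strand share did not pass over all junctions, at 55.6% ± 8.75 against 51.1% ± 3.73 (higher in 10 of 13, adjusted p = 0.118). In own-side junctions it was 66.8% ± 11.5 against 50% ± 5.28, higher in 11 of 13 libraries (exact permutation adjusted p = 0.00342). The 50% is a pool of sites that lay between 25.9% and 74.9%, and the SD does not cover that spread. Both restrictions were chosen after the data had been seen.

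**Figure D4:**
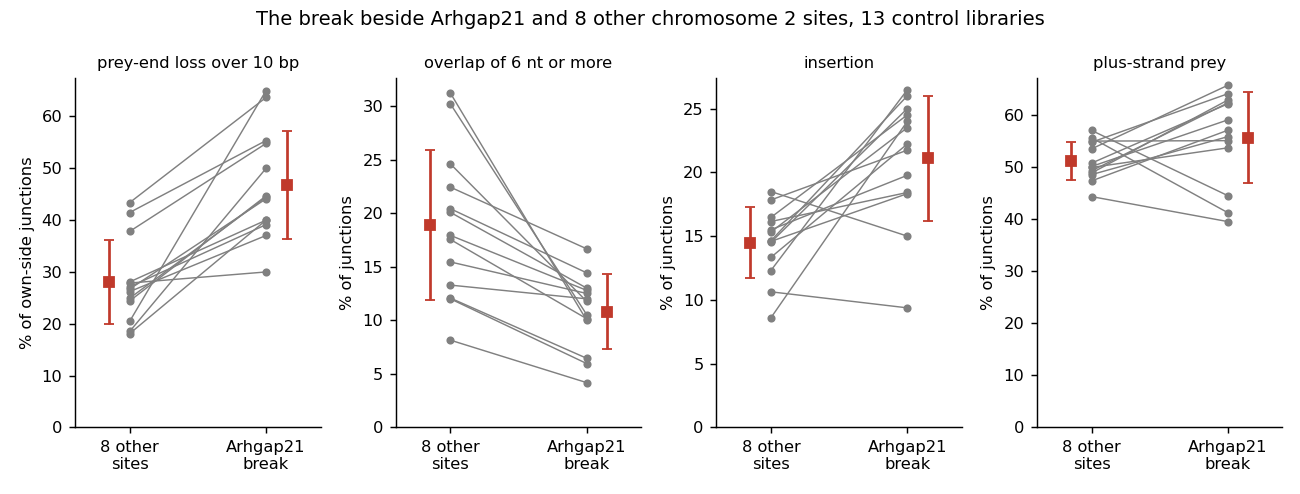
Percentage of junctions of 4 kinds at the Arhgap21 break and at the 8 other frequently cut sites of chromosome 2, with lines joining the values of each of 13 control libraries and red squares giving mean ± SD. Loss of over 10 bp is higher at the Arhgap21 break in all 13 libraries and long overlaps are lower in all 13.

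Site by site, pooled over the control libraries, the Arhgap21 break stood at one end for 2 of these measures. Its 52.5% of own-side junctions with a loss over 10 bp was above all 8 other sites, which lay between 18.4% and 42.8%. Its 8.46% of long overlaps was below all 8, which lay between 11.4% and 40.7%, the highest at the site with the fewest junctions (113 against 1205). Its insertions, at 21.7%, were exceeded by 1 site, its turned-back junctions, at 23.3%, by 3, and its share of junctions by 4. Of the 100 bp left of the motif 87% were G or C, above all 8 other sites (40% to 75%), and of the 100 bp to the right 74%, where the others had 42% to 75%. Library by library, among the 7 to 9 sites with at least 5 junctions, the Arhgap21 break had the highest share of losses in 10 of 13 control libraries and ranks of 1 to 3, and the lowest share of long overlaps in 9 of 13, with ranks of 1 to 4 from the lowest. These are descriptions over 9 sites, with no test.

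By treatment, none of the 4 kinds of junction tested under CK-666 and NU7441 passed. The CK-666 library held fewer junctions at the break than its control in 4 of 6 pairs, and the NU7441 library in 3 of 3, and the part of junction number in these differences was not tested. In the CK-666 experiment the share of own-side junctions with a loss over 10 bp had a median of 42.1% with DMSO (37.0% to 65%) and 31.8% with CK-666 (0% to 44.8%). In 5 of 6 pairs the CK-666 library had the lower share, with a mean difference of -19 points (exact sign-flip permutation p = 0.0938, adjusted p = 0.312 over 4 measures). The pair of replicate 2, whose CK-666 library held 6 junctions, differed by -65 points, and without it the mean was -9.80 points. In the 2 pairs where the CK-666 library held more junctions than its control (replicates 1 and 4) the differences were -18.8 and -1.26 points. Long overlaps had a median of 12.3% with DMSO (10% to 14.4%) and 17.2% with CK-666 (8.55% to 33.3%), higher in 4 of 6 pairs by a mean of 5.83 points (exact permutation adjusted p = 0.312), with 6.67 and -4.45 points in those 2 pairs. Insertions were lower in 5 of 6 pairs by -3.01 points (exact permutation adjusted p = 0.375), and plus-strand prey were higher in 3 of 6 by 3.44 points (exact permutation adjusted p = 0.688).

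With NU7441, 3 pairs cannot give a p below 0.25. Long overlaps made up 23.8%, 30% and 5.16% of junctions with NU7441 and 12.5%, 12% and 4.18% in the controls of replicates 1 to 3. All 3 pairs were higher, by a mean of 10.1 points (exact sign-flip permutation p = 0.25, adjusted p = 0.50). The first 2 NU7441 libraries held 21 and 10 junctions at the break and the third, whose difference was 0.98 points, held 155. Losses over 10 bp were lower in 3 of 3 pairs by -11.9 points (exact permutation adjusted p = 0.50). Insertions and plus-strand prey moved in different directions between pairs (exact permutation adjusted p = 1 for both). The control and treated libraries of replicate 3 had a median loss of 14 bp each, while those of replicates 1 and 2 had medians of 1 to 3 bp, so the loss differed with the replicate, its run and its number of junctions, which go together here and cannot be told apart.

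Side of the cut, and the losses with 2 pairs, were followed as values with no test. The share of junctions right of the cut had a median of 68% with DMSO (52.6% to 76.0%) and 76.0% with CK-666 (66.7% to 82.1%), and was higher with CK-666 in 4 of 6 pairs. It was 81.0%, 80% and 67.7% with NU7441, against 68.8%, 76% and 71.1%. With wiskostatin it was 73.7% and 88.7%, against 71.0% and 79.7%, and with actin R62D-NLS 85.0% and 75.8%, against 80.1% and 61.1%, so both pairs of each were higher with treatment. Losses over 10 bp made up 49.3% and 44.2% of own-side junctions with wiskostatin, against 54.8% and 44.7%. With actin R62D-NLS they made up 44.4% and 29.4%, against 55.4% and 40%, so that all 4 of these pairs were lower with treatment.

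Junctions placed at a no-loss join made up 3% to 10% of junctions with DMSO (median 5.35%) and 3.42% to 33.3% with CK-666 (median 9.54%). Every library held between 2 and 8 of them, and the percentages are given with no comparison. With NU7441 they were 14.3%, 20% and 1.94% in libraries of 21, 10 and 155 junctions, against 12.5%, 12% and 1.61% in controls of 32, 25 and 311.

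Turned-back junctions were followed by treatment as values without a test. With CK-666 they made up 28.2% to 46.7% of junctions (median 33.3%), and with DMSO 24.4% to 50% (median 32.8%), and CK-666 was higher in 2 of 6 pairs. With wiskostatin they were 36.0% and 39.4%, against 18.4% and 31.9% in the controls. With actin R62D-NLS they were 36.3% and 48.5%, against 25.8% and 16.7% with empty vector. Both pairs of each of these experiments were higher with treatment, and the empty vector library with 16.7% rests on 18 junctions. With NU7441 they were 19%, 10% and 16.8%, against 15.6%, 20% and 14.1%, so that all 6 libraries of that experiment were at or below 20%.

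**Figure D5:**
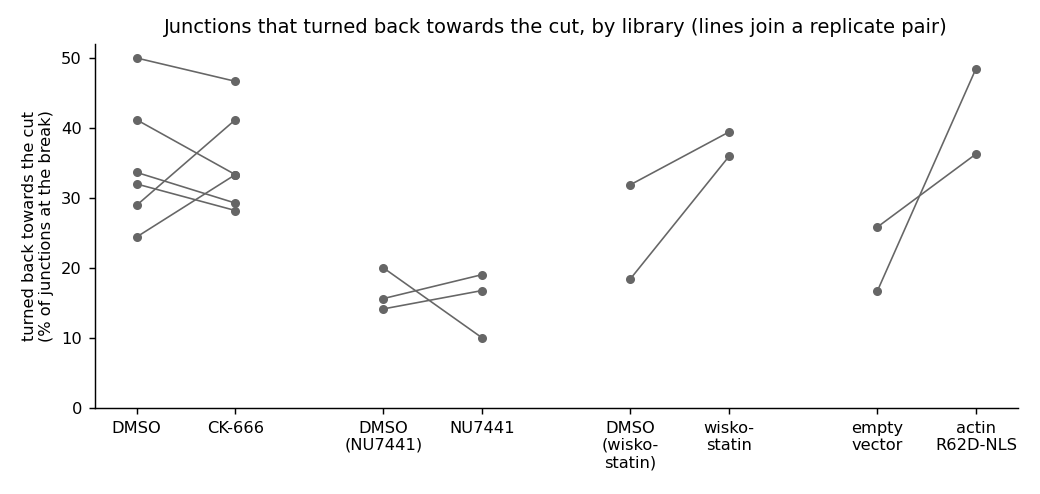
Junctions that turned back towards the cut, as a percentage of junctions at the break, in each AsiSI-MEF library, with lines joining the control and treated library of a replicate. Both lines rise for wiskostatin and for actin R62D-NLS, 2 of 6 rise for CK-666 and 2 of 3 for NU7441.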

How the data were processed

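HTGTS libraries were amplified from sonicated DNA with a biotinylated and then a nested primer beside the bait and sequenced on a MiSeq. The authors used the Burrows–Wheeler Aligner and the mm10 genome, removed duplicates and reads of poor mapping with the default HTGTS pipeline (version not given in the sources used here), and deposited 1 table per library, unpooled, with positions of bait and prey on genome and read in base pairs and no normalization. Coordinates were compared with GRCm38.p6, in which all 1109 listed motifs matched. Hi-C data of the series (12 samples) were not used. The total of a library was its junctions on the assembled autosomes and sex chromosomes, leaving out those within 10 kb of the bait. Sequencing runs were read from the read names.

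Overlap was the number of read bases aligned to both bait and prey, and negative values are insertions. Shares of kinds used libraries with at least 5 junctions at the break. Treated and control libraries were paired by replicate number, as in the study's source data, where each control is set to 1 within its replicate; over motifs, same-numbered libraries deviated together with correlations of -0.03 to 0.23 (CK-666), 0.04 to 0.44 (NU7441), 0.32 (wiskostatin) and 0.36 (actin R62D-NLS), so the values do not bear out a pairing in every CK-666 pair, and the pairs shared sequencing runs. Log2 ratios used 0.5 added to the count and 1 to the total. Tests were exact 2-sided sign-flip permutations over pairs or libraries with Benjamini-Hochberg adjustment over 4 measures, and limma with a mean-variance trend and the replicate as a block across all motifs with at least 10 junctions (adjusted p under 0.05). The limma fit was also run on simulated counts. These held counting error only, so that run does not cover further spread between libraries. Junctions without molecular identifiers are not independent molecules, so intervals cover counting error only. Alternatives were other totals, a 50 bp window, repeated junctions counted 1 time, other minima, unpaired fits and libraries left out. Arhgap21 was the only gene described, and positions were named as the 3 most frequent in the controls and the no-loss joins. The break, the comparison sites and the measures were chosen with earlier results of these data known. Python 3.11.15, pandas 2.3.3, scipy 1.17.1, R 4.3.3 and limma 3.58.1 were used.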

Additional observations from a re-analysis of the deposited data

Results flagged for a closer look

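Junctions at the break were read in the 6 Cas9 libraries, outside the comparisons made in AsiSI-MEFs and without AsiSI in the cells. There were 10 in all, between 0 and 5 per library. No library stood apart from its group in the 12 Dixon tests made. Groups with fewer than 4 libraries were not tested.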

How the results depend on the processing

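The shares under CK-666 and NU7441 and the kinds of junction under both treatments did not pass under any alternative. This says nothing about stability for NU7441 with 3 pairs, nor for CK-666 where pairs were left out, within single runs or with at least 20 junctions, since the pairs left cannot give a p under 0.05. Without the replicate block the log2 ratio of the share was -0.10 for CK-666 (exact permutation p = 0.40), and the pairing changed no other call at the break. Leaving out 1 pair gave log2 ratios of -0.15 to -0.02 for CK-666 and 0.04 to 0.55 for NU7441. For actin R62D-NLS the mean log2 ratio of 0.22 moved to 0.12 with junctions at AsiSI motifs as the total and to 0.12 with a 50 bp window. Motifs called under NU7441 changed from 7 to 26 with at least 1 junction, 31 with junctions at AsiSI motifs as the total, 3 with no replicate block and 0 to 32 without 1 replicate. Under wiskostatin 8 were called with at least 1 junction. The cause of these changes was not tested. Against the other sites of chromosome 2, the 6 DMSO libraries of the CK-666 experiment alone gave 21.4 points for loss over 10 bp (exact permutation adjusted p = 0.0625), -12.0 for long overlaps (0.0625) and 6.51 for insertions (0.125), and none passed. With 6 libraries the first 2 had the smallest p the test can give. With at least 20 junctions, which leaves out 1 empty vector library, the plus-strand difference was 5.88 points (exact permutation adjusted p = 0.0405). Against only sites with at least as many junctions in the library, an alternative added after the data had been seen, it was 6.20 points and passed (adjusted p = 0.0439). In own-side junctions the plus-strand difference was 16.8 points and passed, and those of long overlaps (-3.47) and insertions (2.61) did not. Depth limits the libraries with 6 to 21 junctions at the break, where 1 junction moves a share by several points. At most 4 identical junctions were found in a library, and whether removal of duplicates set this was not tested.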
